A study of Mus musculus with 3 samples.

Results

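Purine nucleotides are the adenine and guanine building blocks of RNA, DNA and ATP. Cells build them from phosphoribosyl pyrophosphate (PRPP) along the de novo pathway, whose product inosine monophosphate (IMP) is converted to AMP or GMP. They also recover bases and nucleosides by salvage and degrade the surplus toward uric acid. Mitf, a transcription factor of the MiT family best known in melanocytes and mast cells, has been described as an effector of p38α in hematopoietic stem cells (HSCs), acting on purine metabolism through the IMP dehydrogenase gene Impdh2. The genes described here are Mitf and 36 genes of purine synthesis, salvage and breakdown, nucleotide kinases and nucleoside transport. They were picked out by the gene name that the array files give, with no threshold on a measured value, and each gene was represented by its probe with the highest mean signal over the 3 arrays. All 37 were on the array, out of 37074 genes, and they were covered by 70 of its 56605 probes. Of the 37, 17 had 1 probe and 20 had more.

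The study measured RNA from long-term HSCs of mouse bone marrow to ask what loss of the damage kinase Atm, alone or together with p38α (gene Mapk14), does to the HSC transcriptome. The 3 groups were WT, AtmsKO and Atmp38dKO, all on C57BL/6J. The floxed Atm gene, or the floxed Atm and p38α genes, were deleted by tamoxifen through a CAG-CreERT2 transgene, whose promoter is active in nearly all tissues, so the deletion was not limited to HSCs. Per the methods, controls received tamoxifen as well but had no Cre transgene, and both sexes were used. The labels give an age of 11 weeks and cells that were CD150+CD48-Flt3-CD34- LSK, while the series text gives an earlier age and a sort by fewer markers. How many mice lay behind an array was not stated. Each group was 1 single-color Agilent array. There was therefore no replicate check and no test, and every difference below compares arrays, not conditions.

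Signals are the scanner's processed intensities. Differences are in log2 units after each array was scaled to its own 75th percentile, which was 102 on the WT, 96.2 on the AtmsKO and 118 on the Atmp38dKO array, so that an equal signal on the last array stands for a lower relative level. A gene was counted when it differed at least 2-fold and was well above background on the brighter array. The scanner's error estimates for the signals of the detected genes at their brightest probes ran from 10% to 19.9%. Probes printed 10 times on an array had a median SD of 0.05 log2 between their spots. Neither figure includes the spread between mice. In bulk RNA, fewer cells of a type and less RNA per cell cannot be told apart.

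The targeted genes bear on the labels. At the Atm probe at chr9:53245871-53245930 (mm9, as for every probe below) the signal was 88.8 on the WT, 16.3 on the AtmsKO and 49.0 on the Atmp38dKO array. At the other Atm probe it was 87.0, 23.9 and 86.5. Mapk14 gave 469, 558 and 616 at one probe and 295, 260 and 345 at the other, with differences of 0.18 and 0.01 log2 between the Atmp38dKO and WT arrays. Mapk14 signal was thus not lower on the array labelled Atmp38dKO, and Atm differed there from WT by -1.07 log2 at one probe and -0.22 at the other. On the AtmsKO array both Atm probes were low, with differences of -2.37 and -1.79 log2 from WT. Both can thus register Atm loss, if that array's label holds. Whether any of these probes lies within the deleted exons is not given in the sources used here, and a Mapk14 probe outside them checks nothing. The smaller Atm differences on the array labelled Atmp38dKO leave its label unsettled. Every direction drawn below from the array labelled Atmp38dKO carries that limit.

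The HSC markers Procr, Slamf1, Kit, Ly6a, Mecom, Hlf, Fgd5 and Meis1 were all well above background on each array, with scaled sums of signal, in the order WT, AtmsKO, Atmp38dKO, of 7349.7, 7445 and 6790.3. Relative to WT, 7 of these 8 genes were below 0 on the array labelled Atmp38dKO, with a median of -0.25 log2, and Fgd5 passed 2-fold, with signals of 198, 146 and 69.8 and a difference of -1.72. The genes named in the gate as negative, Cd34, Flt3 and Cd48, were also well above background on each array, with sums of 1855, 1921 and 2071. Cd34 supplied most of these sums. Of 15 proliferation genes, 15 were detected on each array, and their sum was highest on the AtmsKO array, at 22822, 26876 and 23624. Pcna was by far the brightest of them. Relative to WT, 11 of the 15 were above 0 on AtmsKO, with a median of 0.19 log2. On the array labelled Atmp38dKO 9 were below 0, with a median of -0.02, although the sum was above that of WT. Mast cell markers, which bear on Mitf, were detected for 5, 4 and 6 of 8 genes with sums of 329, 349 and 357. Cpa3, Tpsb2, Cma1 and Hdc were well above background on each array, with Tpsb2 the brightest at 224, 214 and 289.9. Tpsab1 and Ms4a2 were not well above background on any array. Sums over 8 erythroid genes were 421, 367 and 500.05, and over 8 granulocyte genes 3209, 3778 and 3719.7. The erythroid sum was lowest on AtmsKO, although 5 of its 8 genes were above 0 there relative to WT, with a median of 0.30 log2. B cell genes summed to 613, 623 and 623, T cell genes to 703, 722 and 821, endothelial genes to 467, 507 and 373, and stromal genes to 184, 238 and 175. Single markers moved more than these sums, as with the endothelial Kdr at 5.88, 114 and 18.1 and the stromal Pdgfrb at 18.8, 76.2 and 25.1, both highest on AtmsKO. Without Kdr and Pdgfrb, the endothelial and stromal sums would be lower on AtmsKO than on WT. Pecam1 and Emcn were at -0.48 and -0.53 log2 in AtmsKO against WT, while 3 of the 5 endothelial genes compared were above 0. Car1, Alas2 and Cxcl12 also passed 2-fold in at least 1 comparison. The part of these cell types and of cycling in the purine gene differences was not tested.

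Nearly the whole purine pathway was detected in these cells and, at the brightest probe of each gene, differed little between the arrays. Of the 37 genes, 36 were well above background on all 3 arrays, compared with 68.5% of the 37074 genes on the array. The exception was Ampd1, the AMP deaminase of skeletal muscle, which was not well above background on any array. At these brightest probes Mitf alone passed 2-fold. AtmsKO against WT gave 0 genes higher and 1 lower, where 3.94% of 28865 genes tested were higher and 4.09% lower. The array labelled Atmp38dKO against WT gave 0 in either direction, beside 4.02% and 4.49% of 30456 genes, and against AtmsKO it gave 1 higher and 0 lower, beside 3.75% and 3.72% of 30017 genes. The 3 comparisons share arrays pairwise, so a high or low value on 1 array enters 2 of them.

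Many purine genes were bright, so genes of like signal are a closer background. Among all genes with a mean signal of at least 100, AtmsKO against WT put 0.818% past 2-fold upward and 0.809% downward. The array labelled Atmp38dKO put 1.08% and 1.16% past it relative to WT, and 0.969% and 0.827% relative to AtmsKO. There were 29 purine genes in this signal range, with 0 calls in any of the 3 comparisons. The median log2 difference of the 36 detected genes was 0.02 in AtmsKO against WT, where all genes tested had a median of 0.01. It was 0.06 in each comparison of the array labelled Atmp38dKO, beside 0.02 for all genes against WT and -0.00 against AtmsKO. For the 29 brighter purine genes the median was 0.04 in AtmsKO against WT, beside 0.02 for all genes that bright. For the array labelled Atmp38dKO it was 0.09 against WT, beside -0.004, and 0.06 against AtmsKO, beside -0.03.

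**Figure D1:**
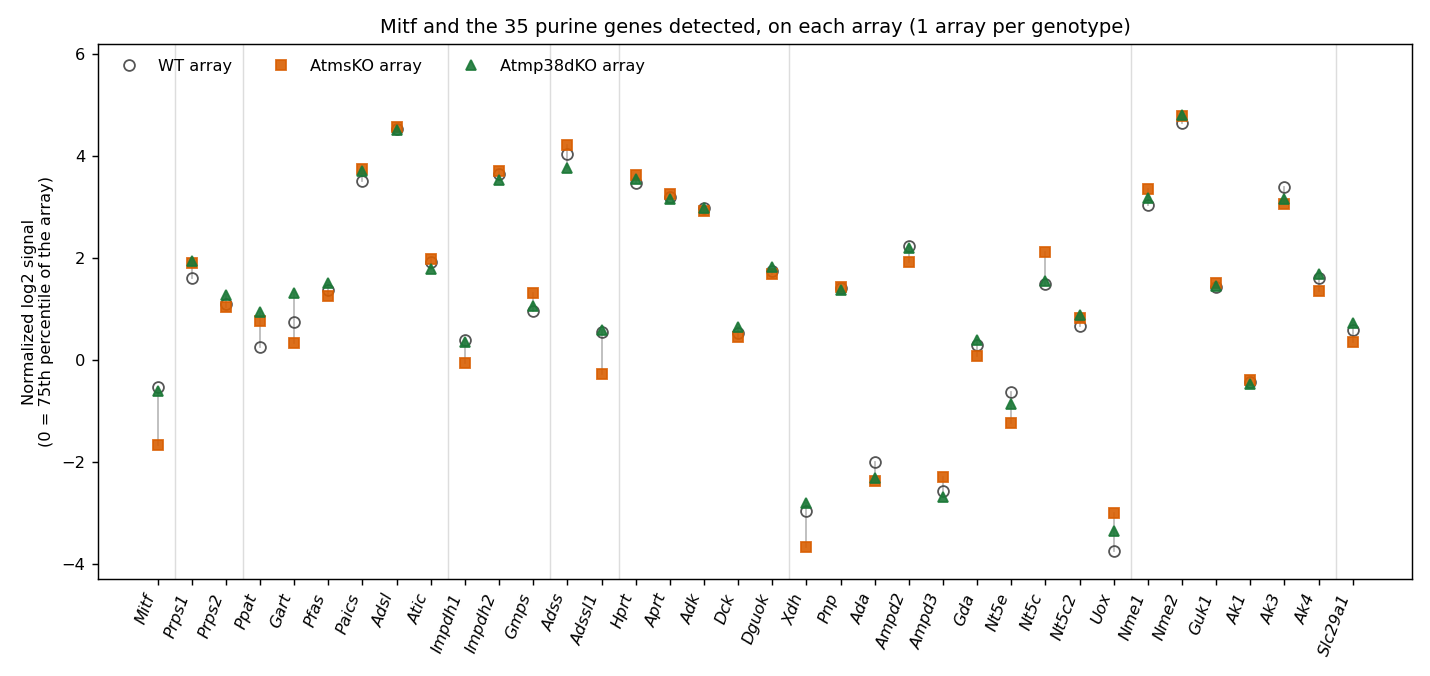
Normalized log2 signal (y axis, 0 is the array's 75th percentile) of Mitf and the 35 other detected genes (x axis, ordered by role, with thin lines between roles) on the WT, AtmsKO and Atmp38dKO arrays, 1 array per genotype, joined by a line per gene. For most genes the 3 symbols nearly coincide, with a median range of 0.32 log2, and the widest gap is that of Mitf, whose AtmsKO symbol lies 1.14 log2 below WT.

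Mitf had signals of 70.7 on the WT, 30.4 on the AtmsKO and 76.9 on the Atmp38dKO array at its brightest probe, chr6:97968501-97968560. The AtmsKO array alone was low, while the other arrays lay within 0.09 log2 of each other. The level on AtmsKO was 2.21-fold below WT, a difference of -1.14 log2, and the array labelled Atmp38dKO was 2.07-fold above AtmsKO, a difference of 1.05. Under normexp background correction both fell short of 2-fold, at -0.54 and 0.47. That setting adds an offset of 50 to every signal, which by itself shrinks the folds of dim genes such as Mitf. Under the median of all Mitf probes the difference from WT was -0.63. In its signal range of 30 to 100, 5.25% of all genes tested were at least 2-fold lower in AtmsKO against WT, and 4.44% at least 2-fold higher in the array labelled Atmp38dKO against AtmsKO.

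The other Mitf probes did not give 1 common picture. A probe whose start lies 115 bases upstream of the brightest one read 65.0 on the WT, 7.0 on the AtmsKO and 58.8 on the Atmp38dKO array, an 8.83-fold lower level on AtmsKO than on WT. That AtmsKO signal lay near 6.12, the lowest signal well above background on its array. Its error estimate was 20.3%, so the size of this fold is imprecise. A probe starting 2728 bases downstream of the brightest read 29.7, 36.7 and 36.3, with AtmsKO the highest of the arrays by 0.38 log2 over WT. A far upstream probe at chr6:97892054-97892113 was well above background only on the WT array, at 6.98. Low Mitf on the AtmsKO array was thus seen at 2 neighboring probes and not at the most downstream one, and which Mitf transcripts each probe reads was not analysed here. The remaining MiT family genes Tfe3, Tfeb and Tfec, which encode related transcription factors, lay between 0.07 and 0.18 log2 in AtmsKO against WT and between 0.02 and 0.29 in the array labelled Atmp38dKO against WT.

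**Figure D2:**
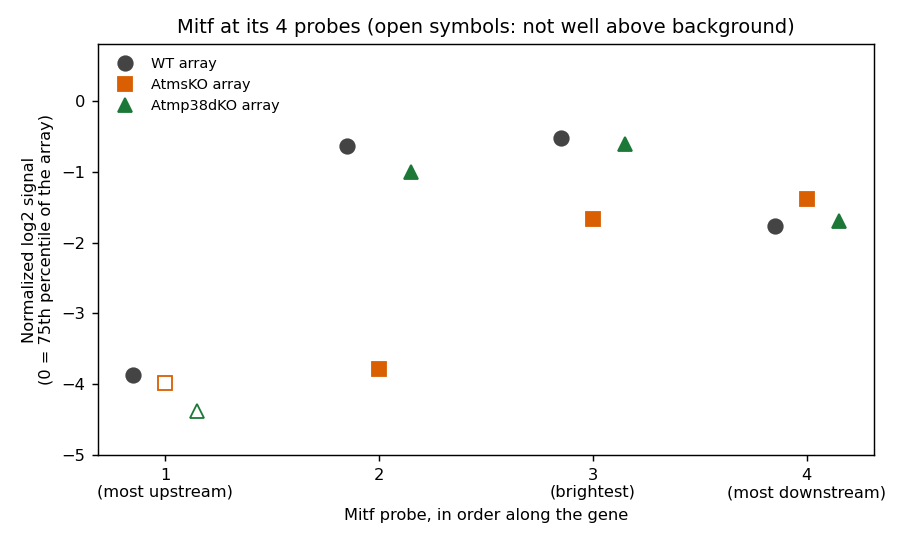
Normalized log2 signal (y axis, 0 is the array's 75th percentile) of the 4 Mitf probes (x axis, in order along the gene) on the 3 arrays. Open symbols were not well above background and stand at the array's floor or at the probe's own value where that is higher. The AtmsKO symbol lies below the others at probes 2 and 3, with differences of -3.14 and -1.14 log2 from WT, and above them at probe 4. At probe 2 it lies near that array's floor.

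PRPP, the sugar phosphate on which purines are built, is made by PRPP synthetases. Prps1 had signals of 309 on the WT, 361 on the AtmsKO and 450.0 on the Atmp38dKO array, differences of 0.30 and 0.33 log2 from WT. Its X-linked relative Prps2 read 217, 197 and 284, or -0.06 and 0.18 log2 from WT. A dimmer Prps2 probe, at 72.7, 67.0 and 57.0, put the array labelled Atmp38dKO lowest, with differences of -0.57 log2 from WT and -0.53 from AtmsKO. Neither gene reached 1.5-fold at its brightest probe in any comparison.

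The de novo steps from PRPP to IMP are carried by 6 of the genes. Ppat encodes the amidotransferase that commits PRPP to purine synthesis, and its signal at chr5:77347115-77347174 was 120.5 on the WT, 164 on the AtmsKO and 226 on the Atmp38dKO array. WT was the lowest array, by 0.52 log2 from AtmsKO and 0.69 log2 from the array labelled Atmp38dKO, a 1.62-fold difference. The other Ppat probe had the same order, with signals of 101, 118 and 168 and differences of 0.31 and 0.52 log2. Ppat was the 1 purine gene that passed 1.5-fold upward between WT and the array labelled Atmp38dKO, with 0 downward, where 11.0% of all genes tested were higher and 10.6% lower. The cause was not tested.

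Gart, a trifunctional enzyme of the early and middle steps, had signals of 169, 121 and 294 at chr16:91633742-91633801. The array labelled Atmp38dKO was the highest, 1.98-fold or 0.99 log2 above AtmsKO and 0.58 log2 above WT. A further probe on the gene's strand gave a different order, at 68.1, 107 and 93.1, with AtmsKO the highest and the array labelled Atmp38dKO 0.50 log2 below it. The direction of Gart between those arrays therefore depended on the probe. Pfas, the amidotransferase of the fourth step, read 262, 230 and 338, within 0.26 log2 in each comparison.

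The remaining de novo enzymes stayed close together. Paics, which joins carboxylase and SAICAR synthetase activity, had signals of 1161, 1296 and 1531, or 0.24 and 0.18 log2 above WT. Adsl, the lyase that acts both here and in AMP synthesis, read 2348, 2292 and 2678, within 0.07 log2 in each comparison. Atic, which closes the ring to IMP, read 383, 379 and 408 at its brightest probe, or 0.06 and -0.12 log2 from WT, while its next brightest probe, at 255, 299 and 399.7, gave 0.31 and 0.43. Over the 6 genes of this stretch the median was 0.05 log2 in AtmsKO against WT, 0.17 in the array labelled Atmp38dKO against WT, with 4 of 6 above 0 in each, and 0.06 between the mutant arrays, with 3 of 6 above 0.

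IMP dehydrogenases commit IMP to the guanine branch. Impdh2, the isozyme linked to Mitf in HSCs, had signals of 1273 on the WT, 1259 on the AtmsKO and 1364 on the Atmp38dKO array. The AtmsKO array, low for Mitf, was 0.06 log2 above WT for Impdh2, and the array labelled Atmp38dKO was 0.18 log2 below AtmsKO. A further Impdh2 probe read 510.1, 541 and 527, with a difference of 0.16 log2 between AtmsKO and WT. Impdh1, the other isozyme, read 133, 92.2 and 151, so that the AtmsKO array was lowest, 0.46 log2 below WT. Gmps, which aminates XMP to GMP, read 197, 240 and 246, or 0.36 and 0.11 log2 above WT.

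The adenine branch uses adenylosuccinate synthetase in a widespread and a muscle type. Adss, the widespread form, had signals of 1672, 1795 and 1606, with the array labelled Atmp38dKO 0.45 log2 below AtmsKO. Its further probes did not repeat this, since one read 406, 396 and 501, or 0.05 log2 between the mutant arrays, and a dim one read 60.3, 32.3 and 82.4, or 1.06. Adssl1, the muscle type, read 148, 79.6 and 178 at its only probe, chr12:113879491-113879550. The AtmsKO array was low by 0.82 log2 against WT and by 0.87 against the array labelled Atmp38dKO, and those arrays lay within 0.05 log2 of each other. The order of the arrays in Adssl1 was that of Mitf in the sense that AtmsKO alone stood low.

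Salvage genes differed little between the arrays at their brightest probes. Hprt, which recovers hypoxanthine and guanine, read 1125 on the WT, 1184 on the AtmsKO and 1385 on the Atmp38dKO array. Aprt, which recovers adenine, read 933, 925 and 1047, and the adenosine kinase gene Adk read 804, 730.0 and 934. The deoxynucleoside kinase genes Dck and Dguok read 146, 132 and 184, and 338, 312 and 419.8 in the same order. At their brightest probes all 5 genes lay within 0.15 log2 in both comparisons with WT and within 0.19 log2 between the mutant arrays. Dimmer probes of Adk and Aprt spread further. An Adk probe at 58.3, 80.8 and 61.6 put AtmsKO 0.55 log2 above WT and gave -0.68 between the mutant arrays. An Aprt probe at 85.4, 88.2 and 139 gave 0.49 log2 between WT and the array labelled Atmp38dKO. Another Aprt probe was well above background on that array only, at 20.4. With WT set at its lowest signal well above background, the difference was 3.30-fold, a nominal bound.

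Of the 11 breakdown genes, 10 were detected. Xdh, xanthine dehydrogenase, which makes uric acid, had low signals of 13.0, 7.58 and 16.9 at chr17:74233511-74233570, with AtmsKO 0.70 log2 below WT and 0.87 below the array labelled Atmp38dKO. A dimmer Xdh probe did not repeat the low AtmsKO level. It read 6.25, 6.18 and 10.7, not well above background on AtmsKO, with AtmsKO 0.06 log2 above WT. Uox, the urate oxidase of liver, was also dim, at 7.58, 12.1 and 11.48, with AtmsKO 0.75 log2 above WT. Signals this low leave only a few units of intensity behind each fold.

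Nucleotidases remove the phosphate from nucleoside monophosphates. Nt5c, a cytosolic form, had signals of 287 on the WT, 420.2 on the AtmsKO and 344 on the Atmp38dKO array at chr11:115351758-115351817. AtmsKO was the highest array, by 0.63 log2 over WT and by 0.58 over the array labelled Atmp38dKO. A further probe on the gene's strand read 263, 315 and 359.6, with AtmsKO again the highest after scaling, by 0.34 log2 over WT and by 0.10 over the array labelled Atmp38dKO. Nt5e encodes CD73, the ecto-nucleotidase that forms adenosine outside the cell, and read 66.0, 40.8 and 64.4 at chr9:88225916-88225975, with AtmsKO 0.61 log2 below WT. Its other probe, which carries the gene's RefSeq mRNA accession, was not well above background on any array. Nt5c2, which acts on IMP and GMP, read 162, 171 and 218, or 0.16 and 0.22 log2 above WT.

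Deaminases and the phosphorylase complete the breakdown group. Pnp, purine nucleoside phosphorylase, read 272, 259 and 306 and was among the steadiest genes, within 0.05 log2 in each comparison. Ampd2, the AMP deaminase of most tissues, read 475, 364 and 542, with AtmsKO 0.31 log2 below WT. A dimmer Ampd2 probe read 108, 82.1 and 243, which put the array labelled Atmp38dKO 1.27 log2 above AtmsKO, whereas the brightest and the remaining probe gave 0.28 and 0.29. Ampd3, the red cell type, read 17.1, 19.5 and 18.3, and the guanine deaminase gene Gda read 125, 101 and 154. Ada, adenosine deaminase, read 25.4, 18.5 and 23.8 at its brightest probe, where AtmsKO was 0.38 log2 below WT. Its other probe read 7.33, 23.0 and 10.7, where AtmsKO was 1.72 log2 above WT, so these low Ada signals gave no settled direction.

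Nucleotide kinases turn monophosphates into diphosphates and triphosphates. The nucleoside diphosphate kinase genes Nme1 and Nme2 read 834, 990.3 and 1072, and 2531, 2642 and 3286. Nme1 was 0.33 log2 higher on AtmsKO than on WT, and Nme2 0.14. Guk1, guanylate kinase, read 276, 275 and 324, within 0.07 log2 in each comparison, while a dimmer probe of the gene at 77.9, 43.5 and 125 differed by 1.24 log2 between the mutant arrays. Among adenylate kinase genes, Ak1 read 75.0, 72.8 and 85.5, the mitochondrial Ak3 1073, 798 and 1055, and Ak4 309.6, 247 and 380.1. A dimmer Ak4 probe, at 77.7, 51.3 and 49.0, put the array labelled Atmp38dKO lowest. Its differences were -0.88 log2 from WT and -0.36 from AtmsKO, where the brightest Ak4 probe gave 0.08 and 0.33. Ak3 was lowest on AtmsKO at both of its probes, by 0.35 and 0.23 log2 from WT. Slc29a1, the equilibrative transporter that carries nucleosides across the cell membrane, read 152, 124 and 196, or -0.22 and 0.15 log2 from WT.

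**Figure D3:**
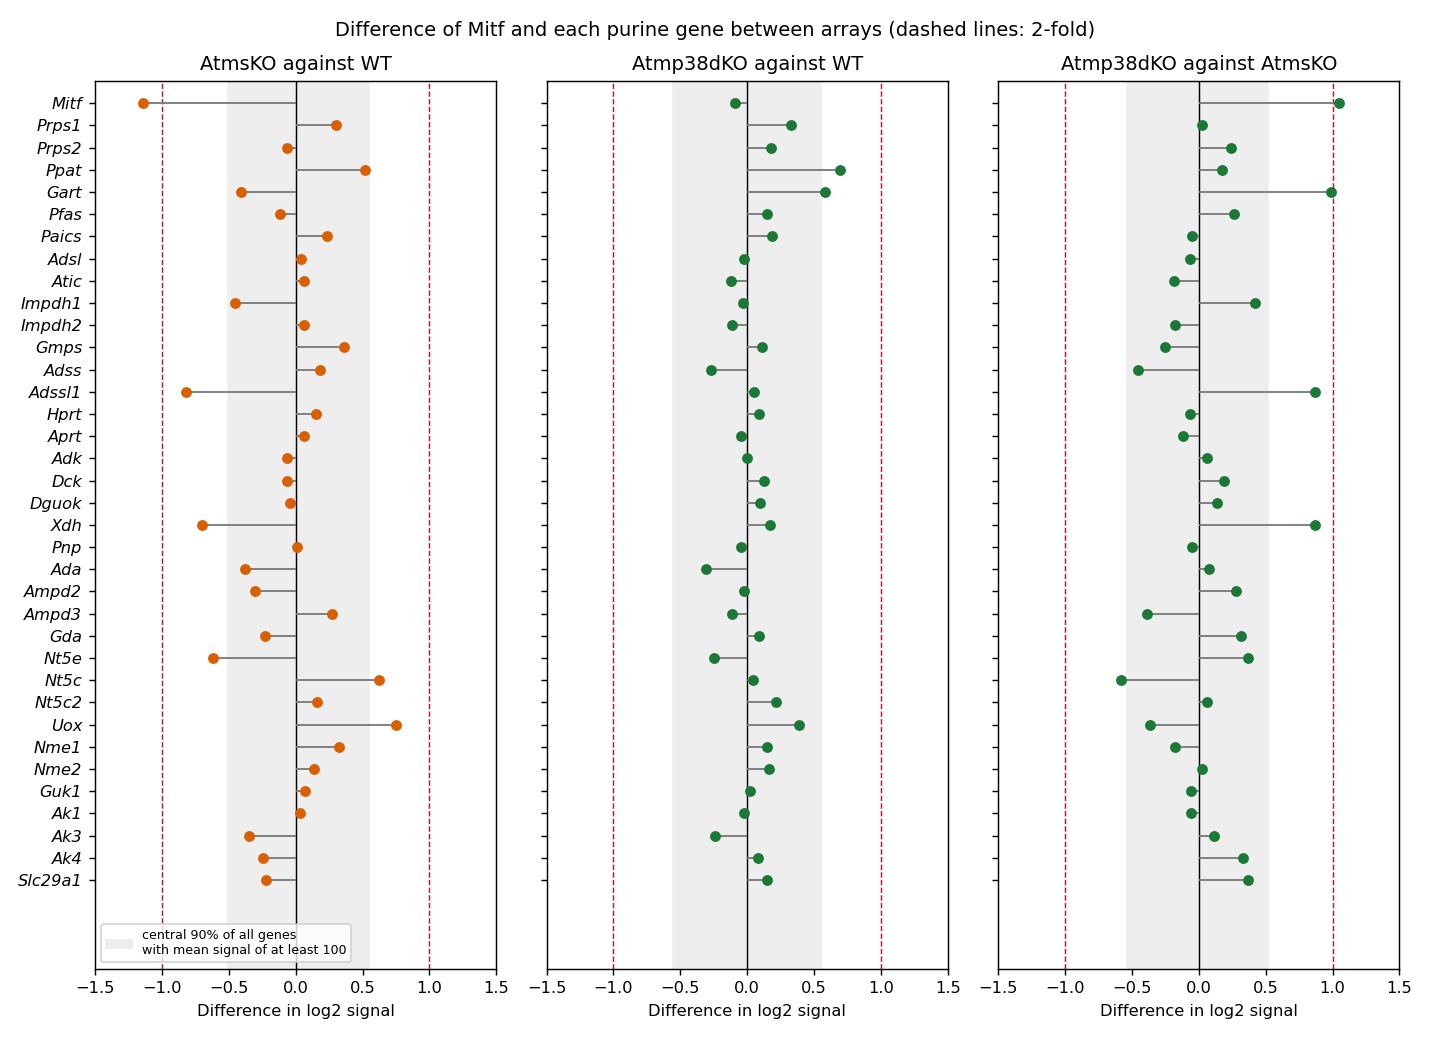
Difference in log2 signal (x axis) of Mitf and the 35 other detected genes (y axis, ordered by role) in the 3 comparisons of arrays. The gray band holds the central 90% of all genes with a mean signal of at least 100 and dashed lines mark 2-fold. Mitf alone crosses a dashed line, at -1.14 in AtmsKO against WT and 1.05 in Atmp38dKO against AtmsKO, and Gart lies just inside it at 0.99.

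At the looser threshold of 1.5-fold, AtmsKO against WT counted 2 purine genes higher, Nt5c and Uox, and 4 lower, Mitf, Adssl1, Xdh and Nt5e. The shares of all genes tested were 10.1% and 10.2%. Between the mutant arrays 4 were higher on the array labelled Atmp38dKO, namely Mitf, Gart, Adssl1 and Xdh, and 0 lower, where all genes gave 10.1% and 8.81%. Among the 29 purine genes with a mean signal of at least 100, AtmsKO against WT had 1 higher and 1 lower, Nt5c and Adssl1, beside 4.38% and 3.47% of all genes that bright. Relative to WT, the array labelled Atmp38dKO had 1 higher, Ppat, and 0 lower, beside 4.35% and 4.37%, and the mutant arrays had 2 higher, Gart and Adssl1, and 0 lower, beside 3.73% and 4.13%. Just short of the limit lay Gart against WT at 0.58 and Nt5c between the mutant arrays at -0.58. Mitf, Adssl1 and Xdh stood in both sets at their brightest probes, and their low AtmsKO values there entered both comparisons. For Xdh a dimmer probe did not repeat the low value.

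The AtmsKO array held the lowest of the 3 levels for 17 of the 36 detected genes, or 47.2%, where it was lowest for 31.0% of the 25390 genes detected on all arrays. It was also the highest array for 15 genes, or 41.7%, beside 34.95% of all, and so was the array labelled Atmp38dKO, for 15 genes beside 33.8% of all. WT was highest for 6 purine genes, or 16.7%, beside 31.2% of all. The range between the highest and lowest array had a median of 0.32 log2 over the purine genes, 0.39 over all genes detected on all arrays and 0.28 over those with a mean signal of at least 100. Many of these orders thus rest on small differences, and their share is a description of 3 arrays.

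The dimmer probes of the same genes often did not repeat the brightest one. Leaving out 2 probes on the opposite strand, in Gart and Nt5c, and those not well above background on both arrays, 15 of 23 further probes had the sign of the brightest probe in AtmsKO against WT, 11 of 24 in the array labelled Atmp38dKO against WT and 7 of 23 between the mutant arrays. The median gap between a further probe and the brightest was 0.21, 0.38 and 0.69 log2 in the same order. Of these further probes, 2, 0 and 5 differed at least 2-fold in the same order of comparisons.

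Other genes of nucleotide metabolism were taken from lists written for this purpose. Of 42 further purine genes, 37 could be compared for AtmsKO against WT, with a median of 0.17 log2 and 1 at least 2-fold higher and 0 lower. For the array labelled Atmp38dKO against WT the median over 37 genes was 0.10, with 3 higher and 1 lower, and against AtmsKO over 38 genes it was 0.00, with 3 higher and 3 lower. Nme7, a divergent member of the diphosphate kinase family, read 61.3 on the WT, 50.2 on the AtmsKO and 153 on the Atmp38dKO array, 1.11 log2 above WT and 1.32 above AtmsKO on the last. Slc29a3, the nucleoside transporter of lysosomes, read 324, 187 and 598, with the array labelled Atmp38dKO 1.39 log2 above AtmsKO.

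Dim genes made up the rest of these counts. Pnp2, a copy of the phosphorylase gene with which it may share labelled RNA, read 7.0, 10.3 and 18.2, or 1.16 log2 above WT on the array labelled Atmp38dKO. Enpp1, an ecto-enzyme that cleaves ATP, read 27.7, 39.99 and 18.6, with the array labelled Atmp38dKO 1.39 log2 below AtmsKO. Ak7, Slc29a2 and Entpd3, named after their values were seen, were not well above background on at least 1 array. This leaves only nominal bounds, set by the lowest signal that is or by the probe's own value where that is higher. Brighter probes could also fail, as Enpp3 did on AtmsKO at 7.04, where that lowest signal was 6.12, so the true bounds are looser. Ak7 was nominally at least 2.82-fold higher on AtmsKO than on WT, and at least 3.51-fold higher there than on the array labelled Atmp38dKO. On the array labelled Atmp38dKO, Slc29a2 was nominally lower by at least 2.20-fold relative to WT and at least 2.99-fold relative to AtmsKO. Entpd3 was nominally higher there by at least 3.76-fold and 2.50-fold.

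One-carbon metabolism supplies formyl groups to the purine ring. Among 18 genes of this supply the medians were 0.05, 0.15 and 0.01 log2 for AtmsKO against WT, the array labelled Atmp38dKO against WT and the mutant arrays. The call was Mthfd2, the mitochondrial folate enzyme, which read 145, 112 and 57.2 and was lowest on the array labelled Atmp38dKO, by 1.55 log2 from WT and 1.27 from AtmsKO. The pentose phosphate pathway, which supplies the ribose of PRPP, had 8 of 9 genes compared, medians of 0.20, 0.07 and -0.06 log2 and 0 genes past 2-fold. Pyrimidine genes, 24 in all, had medians of 0.15, 0.12 and 0.07 log2 and also 0 past 2-fold.

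**Figure D4:**
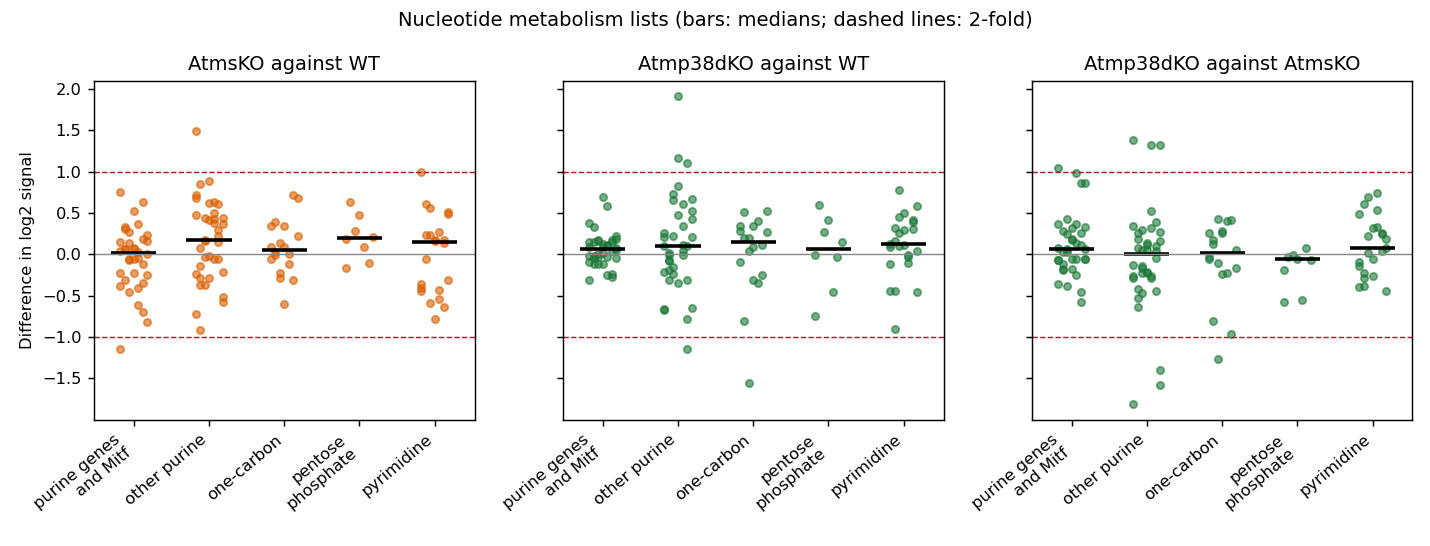
Difference in log2 signal (y axis) in the 3 comparisons of arrays for Mitf and the purine genes, further purine genes, one-carbon supply, pentose phosphate and pyrimidine genes (x axis). Points are genes compared, bars are medians, and dashed lines mark 2-fold. Medians lie between -0.06 and 0.20, and points beyond the dashed lines belong to Mitf, the further purine genes and Mthfd2.

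Because Mitf and related factors bind E-boxes, the sequence upstream of each gene was read for the palindrome CACGTG, an E-box core. The window read was the 250 bases before each RefSeq start (GRCm38.p6). A window was given for 34 of the 37 genes, the exceptions being Ampd1, Pfas and Xdh. The letters were present for 8 of 34, or 23.5%, compared with 6.86% of 27025 genes in the table and 8.69% of the 13282 among them detected on all 3 arrays. The related CATGTG, on either strand, was present for 3 of 34, or 8.82%, beside 13.8% and 10.7%, namely in Nt5c, Prps2 and Slc29a1. The 8 genes with CACGTG span de novo synthesis (Paics, Atic), the guanine branch (Impdh2), kinases (Nme1, Ak4), breakdown (Nt5c2, Ampd3) and transport (Slc29a1), and are shown on each gene's strand with the motif in capitals because they are the stretches where these letters occur.
Atic, chr1:71557137-71557155, plus strand: ggacctcggggtCACGTGg
Impdh2, chr9:108560314-108560343, plus strand: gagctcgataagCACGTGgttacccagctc
Paics, chr5:76951087-76951116, plus strand, inside the neighboring Ppat gene: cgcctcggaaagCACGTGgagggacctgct
Nme1, chr11:93968273-93968302, minus strand: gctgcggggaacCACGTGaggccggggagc
Nme1, chr11:93968037-93968066, minus strand: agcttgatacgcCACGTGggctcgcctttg
Slc29a1, chr17:45595304-45595333, minus strand: gagcagcgccagCACGTGgcgcgcatgggc
Ak4, chr4:101419477-101419506, plus strand: tcccactctgccCACGTGcggggaccggca
Nt5c2, chr19:46969745-46969774, minus strand: cactttgcttccCACGTGggtactgattaa
Ampd3, chr7:110772514-110772543, plus strand: ccagcagtgggtCACGTGtcagctctgtaa

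These letters are a match and not a bound site, they do not tell which factor would bind, and no binding was measured. The stretches of Ak4, Ampd3, Nt5c2 and Slc29a1 and the second one of Nme1 lie within the gene's own RefSeq span, before a later start, and the Atic stretch ends with its window. The 8 genes with CACGTG ranged from -0.25 to 0.33 log2 in AtmsKO against WT, with a median of 0.11, beside -1.14 for Mitf itself. In the 26 genes without it, Mitf among them, the range was -1.14 to 0.75 and the median -0.02. The lower end is the value of Mitf itself, and the next lowest was Adssl1 at -0.82. Between the mutant arrays, where Mitf differed by 1.05 log2, the median with the letters was -0.11, over a range of -0.39 to 0.37. Without them it was 0.07, over -0.58 to 1.05, the upper end again being Mitf. Whether Mitf acts on the genes with these letters was not tested.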

How the data were processed

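RNA of 3 samples, 1 per genotype, was hybridized to single-color Agilent arrays. The deposited scanner files, made with Agilent Feature Extraction 11.5.1.1 per the labels, hold intensity values that are background-subtracted within an array and not normalized between arrays. The authors also deposited log2 values, which equaled log2 intensity minus the 75th percentile with controls within 0.02 for 99.97%, 99.96% and 99.78% of probes.

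Here control and outlier spots were left out, spots of a probe averaged and log2 intensity was centered on the 75th percentile of the remaining probes of its array. This removes any change in total RNA. A floor was set at an array's lowest normalized signal well above background, and probes that were not above background took it unless their own value was higher. Probe positions are mm9 per the file headers. Of 70 member probes, 52 had their accession in a RefSeq table (GRCm38.p6), all with the same symbol. Promoter windows came from RefSeq.

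All members were named, and from other lists those at least 2-fold apart and well above background on both arrays, plus 3 named after their values were seen, as were the markers past 2-fold. The members, lists and thresholds were chosen with earlier results of these data known. With 1 array per group no test was possible. The results of 2 marker genes are not reported here. The functions were tested on simulated data. Python 3.11.15, pandas 2.3.3, R 4.3.3 and limma 3.58.1 were used. The 8 alternatives were quantile normalization, median centering, normexp (offset 50), the authors' values, no floor, all probes of a gene, detection on both arrays and a 1.5-fold threshold.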

Additional observations from a re-analysis of the deposited data

How the results depend on the processing

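Of 69 recomputed counts and medians of the purine genes, 62 kept their value within the limits used and 7 moved. Mitf, the 1 gene lower in AtmsKO against WT, was no longer counted (0 genes) under normexp background correction, where its difference was -0.54, and under the median of all probes, where it was -0.63. Between the mutant arrays the count of genes higher was 0 under normexp, with Mitf at 0.47. The normexp offset of 50 shrinks the folds of dim genes, so these lost calls cannot separate the background step from the offset. At 1.5-fold AtmsKO against WT gave 2 genes higher and 4 lower, the array labelled Atmp38dKO gave 1 higher than WT, and between the mutant arrays 4 were higher. The causes were not tested. Of 108 differences of single genes, 97 kept their sign under normexp and 84 under the median of all probes. Under quantile normalization, median centering, the authors' values, no floor and detection on both arrays, 103 to 108 did. No floor and detection on both arrays could change none of them, since all 36 detected genes were well above background on every array. The authors' values had nearly the same scaling, so their agreement adds little. The 62 kept values include these settings. In size, 46 of the 108 moved beyond the limits used under normexp, 40 under the median of all probes and 4 under quantile normalization. No paired analysis was possible because each genotype had 1 array, and for the same reason no array could be left out. Precision is set by having so few arrays, and dim genes such as Xdh, Uox and Ada rest on few intensity units.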
